A study of Mus musculus with 17 samples.

Results

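The genes described here are 10 genes of caveolae and of transcytosis across the blood-brain barrier: Cav1, Cav2, Cavin1, Cavin2, Cavin3, Ehd2, Ehd4, Plvap, Mfsd2a and Tfrc. They were chosen by name, with earlier results of these data known, and are 10 of the 42687 genes in the count table. RNA was sequenced from microvessels isolated from mouse cortex by dextran centrifugation, a preparation that the labels describe as holding endothelial cells, pericytes and the endfeet of astrocytes. The mice were WT or carried the APP/PS1 transgenes (APP in the labels), were 10 to 11 months old, and received 10 mg/kg of peptide by intraperitoneal injection every 2 days for 2 weeks. The peptide was either gp91-ds-tat, an inhibitor of the superoxide-producing oxidase NOX2 (called inhibitor here, NOX2 in the labels), or sgp91-ds-tat, its control peptide (SC in the labels). There were 5 libraries of WT mice with control peptide, 5 of WT mice with inhibitor, 2 of APP/PS1 mice with control peptide and 5 of APP/PS1 mice with inhibitor. Every mouse in the 4 groups therefore carried a tat-linked peptide, and no library came from an uninjected mouse. The promoters that drive the transgenes, the sex of the mice and whether animals were pooled were not given in the sources used here. Nothing in the labels says that the libraries of a group came from separate animals, so p-values measure the spread between these libraries, which may be technical in part.

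Caveolae are flask-shaped pits of the plasma membrane that are abundant in most endothelial cells and scarce in those of the brain, where transport across the cell in vesicles is held low. Caveolin proteins, inserted in the membrane, and the cavins, which coat it from the cytosol, build the pit together, and EHD proteins gather at its neck and limit how often it leaves the surface. PLVAP forms the diaphragms of caveolae and fenestrae in leaky vessels. MFSD2A, a lipid transporter of brain endothelium, is known for keeping caveola formation low there, and the transferrin receptor carries iron-loaded transferrin into the cell through clathrin-coated pits.

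The 5′ flanks of 4 caveola genes are shown because the levels of these genes were followed together across libraries: Cav1 encodes the main caveolin of endothelium, and Cavin1, Cavin2 and Ehd4 were the 3 genes with the closest relations below. Each sequence is the 250 bases before a transcription start in the RefSeq annotation of GRCm38.p6, on the strand of the gene (the first start listed where RefSeq has several). Capitals mark matches on either strand to GGGCGG (the GC box, bound by SP1-type factors) and to CCAAT (the CCAAT box). The windows are chr6:17306085-17306334 (plus strand) for Cav1, chr11:100970618-100970867 (minus strand) for Cavin1, chr1:51288876-51289125 (plus strand) for Cavin2 and chr2:120154576-120154825 (minus strand) for Ehd4.
Cav1: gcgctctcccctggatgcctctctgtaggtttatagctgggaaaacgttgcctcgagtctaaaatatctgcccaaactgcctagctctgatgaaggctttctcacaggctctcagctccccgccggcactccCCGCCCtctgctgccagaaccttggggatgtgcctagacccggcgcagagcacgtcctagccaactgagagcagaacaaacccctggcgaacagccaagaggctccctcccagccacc
Cavin1: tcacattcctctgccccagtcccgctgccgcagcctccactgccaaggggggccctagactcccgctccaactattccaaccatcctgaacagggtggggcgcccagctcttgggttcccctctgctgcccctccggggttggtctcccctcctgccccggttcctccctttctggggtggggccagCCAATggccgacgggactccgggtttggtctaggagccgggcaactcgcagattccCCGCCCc
Cavin2: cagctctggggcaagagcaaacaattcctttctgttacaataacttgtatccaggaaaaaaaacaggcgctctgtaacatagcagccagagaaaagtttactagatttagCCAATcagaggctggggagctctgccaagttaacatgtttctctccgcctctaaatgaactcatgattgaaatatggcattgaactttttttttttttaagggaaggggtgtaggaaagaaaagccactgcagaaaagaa
Ehd4: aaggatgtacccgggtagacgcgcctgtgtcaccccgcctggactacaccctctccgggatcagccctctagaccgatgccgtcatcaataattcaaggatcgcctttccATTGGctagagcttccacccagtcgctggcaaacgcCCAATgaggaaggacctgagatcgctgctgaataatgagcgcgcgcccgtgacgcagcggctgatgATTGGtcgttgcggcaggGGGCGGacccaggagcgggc

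RefSeq windows were matched for 8 of the 10 genes, all but Cavin3 and Plvap. A CCAAT match was present in 7 of the 8 windows, Cav1 being without one, and in 33.8% of the 32851 windows of this length in the table. Ehd4 held 3 such matches. A GC box match was present in 5 of the 8 windows (Cav1, Cav2, Cavin1, Ehd2 and Ehd4) and in 32.7% of all windows. The ETS core, CCGGAA, was present in 0 of the 8 and in 12% of all windows. The TATA box, TATAAA, was present in 1 of the 8 (Cav1) and in 12.4% of all windows. Neither is marked in the sequences above. GC content was 40.4% in the Cavin2 window and 67.6% in that of Cavin1, against a median of 52.4% over all windows. A match describes these letters only, and the factors that bind there were not measured.

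Total counts were between 7316503 and 17862965 per library, with a median of 11342154. The genotype labels were checked on the transgenes: Prnp, whose promoter is used in many APP/PS1 lines, was at 682 to 1418 CPM (reads of a gene relative to all reads of its library, after scaling) in the 7 APP/PS1 libraries and at 301 to 555 in the 10 WT libraries (edgeR, log2 difference 1.33, adjusted p = 3.79e-06). App was at 1897 to 3334 CPM against 1262 to 2230 (edgeR, adjusted p = 0.00631). Cybb, which encodes the catalytic subunit of NOX2, was at 3.26 to 9.40 CPM and was called in no comparison. Endothelial markers were abundant, with median levels of 1206 CPM for Flt1, 705 for Slc2a1 and 241 for Cldn5. Markers of neurons, a cell type outside the labelled preparation, were abundant too (Syt1, 1799 CPM). The summed level of 7 choroid plexus markers differed most between libraries, from 26.7 to 8113 CPM.

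All 10 genes passed the filter on low counts. Compared per length, as CPM per kilobase of exon, Cavin1 was the highest at 70.5 ± 16.5 (SD, n = 17 libraries), and ranked 149th of the 18678 tested genes with a length. Cavin1, also called PTRF, is the cavin without which caveolae do not form. Tfrc was at 32.1 ± 4.62 and Cav1 at 26.9 ± 7.87. Cavin2, which shapes caveolar membrane, was at 23.6 ± 5.42, Mfsd2a at 22.6 ± 5.45 and Ehd2 at 20.3 ± 4.81. Cav2, the caveolin that needs Cav1 to reach the surface, was at 16.6 ± 3.16. The last 3 were Ehd4 at 9.48 ± 2.52, Cavin3 at 9.24 ± 1.65 and Plvap at 2.59 ± 1.28, the only one of the 10 below most tested genes (34.3% of tested genes were lower).

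Some neighbours in this order were separated in every library and others were not. Cavin1 was above Tfrc in 17 of 17 libraries, Cav2 above Ehd4 in 17 and Cavin3 above Plvap in 17. Tfrc was above Cav1 in 13 libraries, Cav1 above Cavin2 in 11, Cavin2 above Mfsd2a in 11, Mfsd2a above Ehd2 in 12 and Ehd2 above Cav2 in 15. Ehd4 was above Cavin3 in 7 of 17 libraries, so those levels were within each other's spread.

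**Figure D1:**
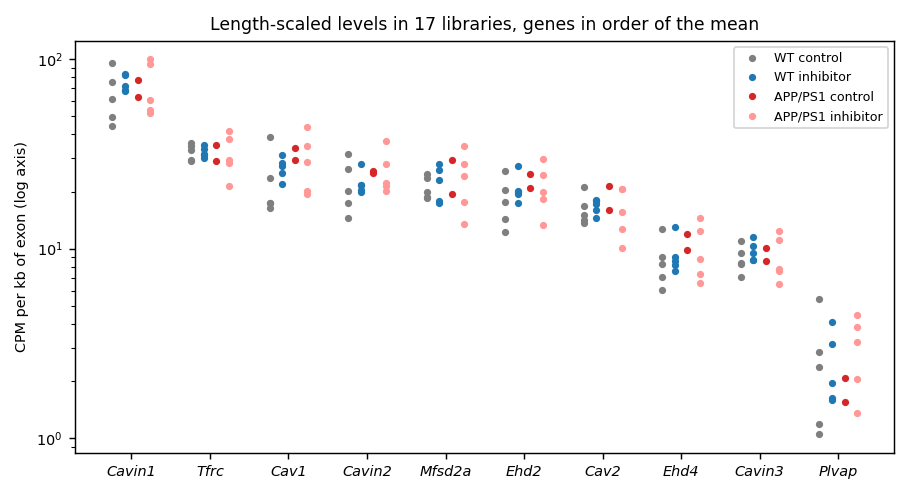
Level of each gene in CPM per kilobase of exon (log axis), genes ordered by their mean. Each point is 1 library, coloured by group (control: control peptide). Cavin1 lies above Tfrc in all 17 libraries, and Plvap lies below the other 9 genes.

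Cav1 (ENSMUSG00000007655) encodes caveolin-1 and lies at chr6:17306335-17341452 on the plus strand of GRCm38, as annotated by GENCODE. In WT mice with control peptide it was at 59.9, 59.9, 81.1, 134 and 56.6 CPM, and in WT mice with inhibitor at 107, 97.6, 75.0, 93.9 and 86.6. In APP/PS1 mice it was at 101 and 117 CPM with control peptide and at 69.1, 150.1, 99.0, 67.1 and 119 with inhibitor. With control peptide, 4 of the 5 WT libraries lay below both APP/PS1 libraries, and the fifth, at 134 CPM, lay above them. With inhibitor the APP/PS1 libraries spread from below to above all WT libraries. Cav2 (ENSMUSG00000000058, chr6:17281185-17289115, plus strand) ran between 33.7 and 71.1 CPM over the 17 libraries, and both extremes came from APP/PS1 mice.

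Cavin1 (ENSMUSG00000004044, chr11:100956733-100970887, minus strand) was at 272, 159, 221, 341 and 177 CPM in WT mice with control peptide and at 257, 246, 294, 300.0 and 242 in WT mice with inhibitor. It was at 227 and 277 CPM in APP/PS1 mice with control peptide and at 193, 336, 218, 185 and 356 in APP/PS1 mice with inhibitor. The inhibitor-treated WT libraries were the narrowest of the groups of 5, at 268 ± 27.4 CPM (SD, n = 5), and lay inside the range of every other group of 5. Cavin2 (ENSMUSG00000045954, chr1:51289126-51302960, plus strand) ran between 44.4 and 112 CPM. Cavin3 (ENSMUSG00000037060, chr7:105480083-105482300, minus strand), which links caveolae to protein kinase C signalling, ran between 10.8 and 20.7 CPM. Genes annotated on the opposite strand overlap Cav1 and Cav2 (Gm15581, 0 to 10 reads per library), Cavin2 (9330175M20Rik, 2 to 11 reads) and Cavin3 (Gm45667, 3 to 20 reads), all few beside the reads of these genes.

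Ehd2 (ENSMUSG00000074364, chr7:15946958-15967567, minus strand), the ATPase that sits at the caveolar neck, ran between 62.9 and 152 CPM. Ehd4 (ENSMUSG00000027293, chr2:120089175-120154606, minus strand), which acts at endosomes and can also be found at caveolae, ran between 24.4 and 58.4. For both, the lowest library was WT with control peptide and the highest was APP/PS1 with inhibitor. The groups overlapped for both genes in every comparison.

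Plvap (ENSMUSG00000034845, chr8:71497765-71511752, minus strand) was at 2.37, 2.10, 5.69, 10.8 and 4.71 CPM in WT mice with control peptide and at 6.26, 3.18, 3.23, 8.19 and 3.88 in WT mice with inhibitor. It was at 4.12 and 3.08 CPM in APP/PS1 mice with control peptide and at 6.38, 7.68, 2.71, 8.89 and 4.10 in APP/PS1 mice with inhibitor. These levels rest on 20 to 121 reads per library, well above the floor of 3 reads. The highest library was 5.16 times the lowest, and both belonged to WT mice with control peptide. Plvap shares its position on the genome with Gtpbp3 on the opposite strand, which had 180 to 325 reads per library. Whether the counting used strand is not given in the sources used here, so reads of Plvap and Gtpbp3 may not be fully told apart.

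Mfsd2a (ENSMUSG00000028655, chr4:122946850-122961188, minus strand) was at 53.0, 44.8, 41.6, 55.6 and 41.9 CPM in WT mice with control peptide and at 58.6, 62.5, 51.9, 39.1 and 40.2 in WT mice with inhibitor. It was at 65.7 and 43.8 CPM in APP/PS1 mice with control peptide and at 30.4, 54.6, 63.0, 39.6 and 78.3 in APP/PS1 mice with inhibitor. The lowest and the highest library were both in that last group. Per kilobase of exon, the lowest Mfsd2a level, 13.5, was above the highest Plvap level, 5.44.

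Tfrc (ENSMUSG00000022797, chr16:32608920-32632794, plus strand) was at 178, 223, 206, 216 and 181 CPM in WT mice with control peptide and at 218, 185, 193, 195 and 208 in WT mice with inhibitor. It was at 179 and 217 CPM in APP/PS1 mice with control peptide and at 132, 234, 257, 180.3 and 175 in APP/PS1 mice with inhibitor. The 10 WT libraries kept within 1.25 times of each other. The 5 APP/PS1 libraries with inhibitor differed by up to 1.94 times.

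**Figure D2:**
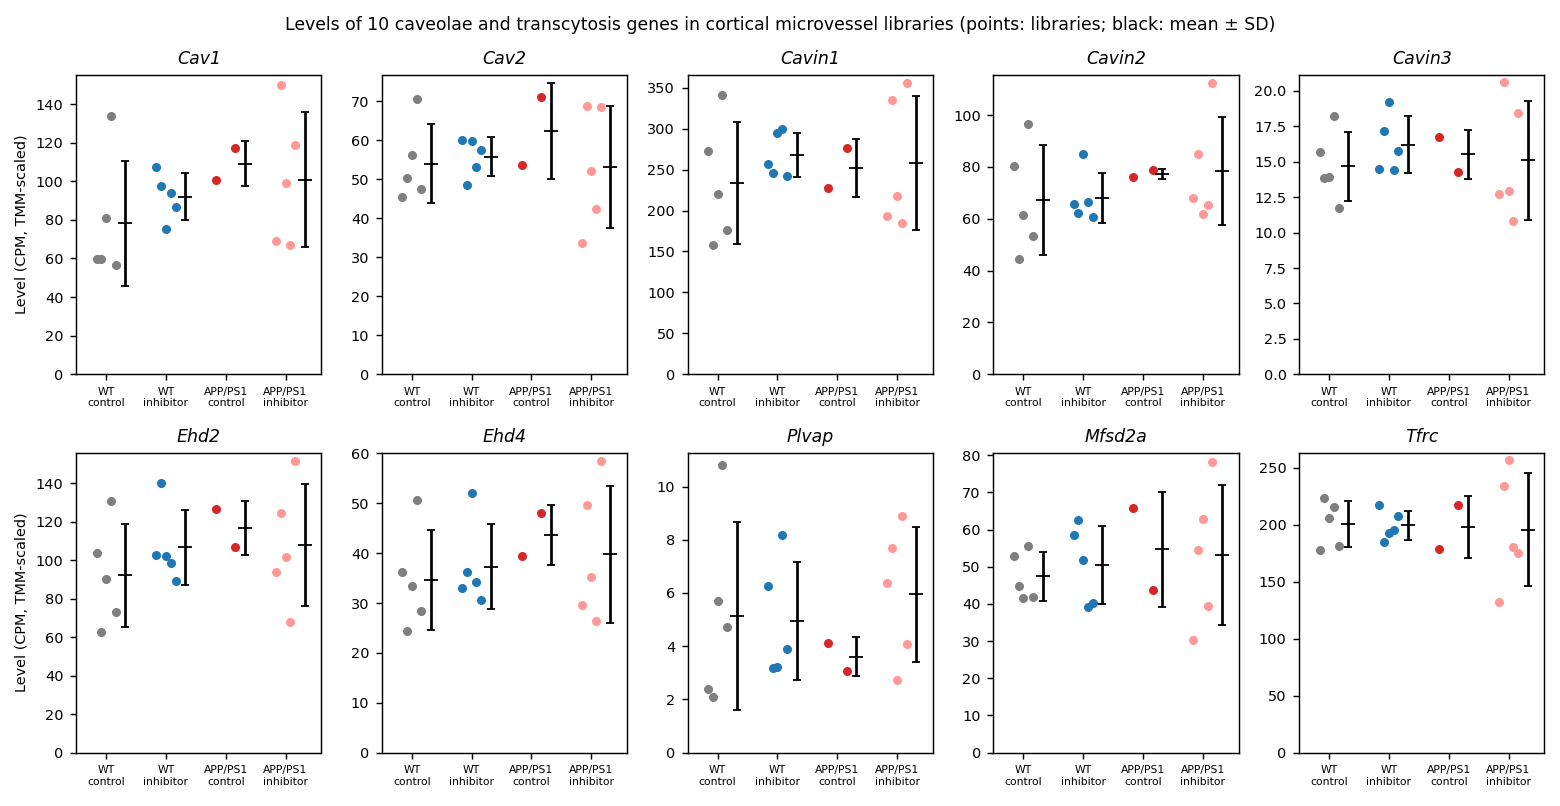
Level of each gene in CPM by group (control: control peptide). Points are libraries and black bars are the mean ± SD of the group. In all 10 panels the ranges of the groups overlap, and the 5 Plvap levels of WT mice with control peptide run from 2.10 to 10.8 CPM.

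Spread within groups was wide for most of the genes. The within-group SD on the log2 scale was 0.72 for Plvap, larger than that of 97.0% of tested genes. It was 0.42 for Cav1, 0.39 for Ehd4, 0.38 for Mfsd2a, 0.37 for Cavin1, 0.36 for Ehd2, 0.34 for Cavin2, 0.30 for Cav2 and 0.27 for Cavin3. Tfrc was the steadiest of the 10 at 0.24. The median was 0.25 over all tested genes and 0.19 over the 11192 genes with a mean of at least 10 CPM.

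The comparison of genotypes asks whether the transcripts of caveolar and receptor-mediated transport differ in vessels of APP/PS1 mice. None of the 10 genes was called in APP/PS1 against WT mice over both peptides (edgeR, adjusted p under 0.05), where 0.587% of the 18753 tested genes were. At an unadjusted p under 0.05 the count was also 0 of 10, against 6.38% of tested genes, and DESeq2 and limma voom called 0 of 10. No gene of the 10 had ranges of CPM that did not overlap between the genotypes, against 0.272% of tested genes. The median log2 difference was 0.08 over the 10 genes and 0.0017 over all tested genes, and 8 of the 10 values were above 0, against 50.7% of tested genes. With DESeq2's size factors 7 of the 10 were above 0. Many of these genes varied together within groups, as given below. Their signs are therefore not 10 separate results, here or in the comparisons that follow. Single libraries moved the median of the 10 genes by over 1.5 times. It was 0.16 without WT control replicate 4 (8 of 10 above 0), 0.14 without APP/PS1 inhibitor replicate 1 (9 of 10), 0.13 without APP/PS1 inhibitor replicate 4 (8 of 10) and 0.13 without APP/PS1 control replicate 2 (6 of 10). It was 0.04 without APP/PS1 inhibitor replicate 2 (5 of 10) and 0.03 without replicate 5 of that group (6 of 10).

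Among the caveolins, Cav1 had the widest gap, at 85.2 ± 24.2 CPM (SD, n = 10) in WT and 103 ± 29.3 (SD, n = 7) in APP/PS1 mice. The fold was 1.20 with a 95% interval of 0.922 to 1.56 (edgeR, log2 difference 0.26 ± 0.18 SE, adjusted p = 0.908). Cav2 differed by 0.03 on the log2 scale. Of the cavins, Cavin2 differed by 0.20 ± 0.15 and Cavin3 by -0.03. Cavin1 differed by 0.0039, with a 95% interval of the fold of 0.798 to 1.26, and its sign turned under other scalings. Ehd2 differed by 0.13 and Ehd4 by 0.18.

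Plvap was at 5.04 ± 2.77 CPM (SD, n = 10) in WT and 5.28 ± 2.39 (SD, n = 7) in APP/PS1 mice, and its interval of the fold, 0.637 to 1.65, was the widest of the 10. Mfsd2a differed by 0.12 ± 0.16 on the log2 scale. Tfrc differed by -0.03 ± 0.11, and its interval of the fold, 0.842 to 1.14, was the narrowest of the 10 on the log2 scale. These intervals bound the differences and do not show that levels were equal. In bulk RNA, fewer cells of a type and less RNA per cell cannot be told apart.

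The levels of cell type markers are given beside these differences. The 10 endothelial markers summed to 2985 to 4835 CPM in WT mice with control peptide, 3408 to 4289 in WT mice with inhibitor, 3852 to 4225 in APP/PS1 mice with control peptide and 2717 to 4969 in APP/PS1 mice with inhibitor. None of the 10 was called by genotype over both peptides, where 0.587% of tested genes were. In the same comparison 4 of 6 microglial markers were called higher in APP/PS1 mice, and the sum of the 6 was 171 to 238 CPM in WT and 205 to 385 in APP/PS1 libraries. Of 7 astrocyte markers, 1 was called higher (Gfap, log2 difference 1.20, adjusted p = 0.000125 by edgeR), 6 of 7 were above 0 and the median difference was 0.19. Their sum was 2990 to 4403 CPM in WT and 3080 to 5148 in APP/PS1 libraries. Gfap is named because it was seen to be called. The part of microglial and astrocyte RNA in the differences of the 10 genes was not tested. The 7 neutrophil markers summed to 1.04 to 11.3 CPM, and Ly6g had a median of 0.

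With the mean log2 level of the endothelial markers as a covariate, still 0 of the 10 genes passed the adjusted threshold. By genotype over both peptides 151 of the 18753 tested genes did. At an unadjusted p under 0.05 edgeR then counted 2 of the 10, Cav1 and Cavin2, and 1630 of the tested genes, against 1197 without the covariate. The log2 difference of Cav1 was then 0.27 ± 0.09 (SE; unadjusted p = 0.00778, adjusted p = 0.297 by edgeR), with an interval of the fold of 1.06 to 1.37. That of Cavin2 was 0.21 ± 0.10 (unadjusted p = 0.0408, adjusted p = 0.549 by edgeR). The estimates of Cav1 and Cavin2 stayed near those without the covariate, and their standard errors were smaller.

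**Figure D3:**
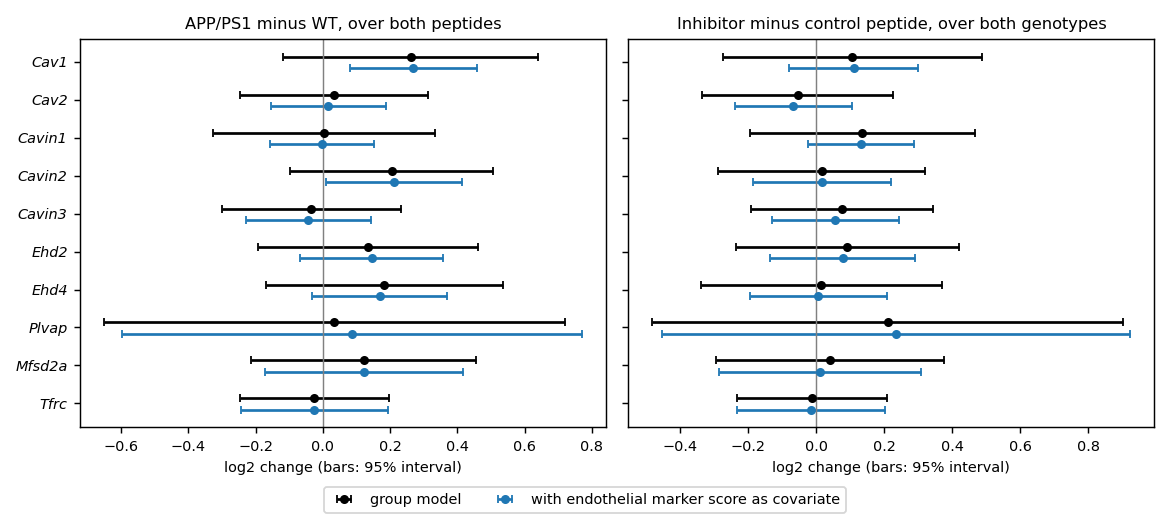
Log2 difference of each gene between genotypes (left) and between peptides (right), with 95% intervals; black from the group model, blue with the endothelial marker score as covariate. All 20 black intervals cross 0; with the covariate, those of Cav1 and Cavin2 by genotype lie above 0 without passing the adjusted threshold.

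In mice given control peptide, 0 of the 10 genes were called between APP/PS1 and WT, against 0.0533% of tested genes, and 0 had ranges that did not overlap, against 7.53% of tested genes. The count at an unadjusted p under 0.05 was 0 by edgeR, against 3.97% of tested genes. Cav1 had a log2 difference of 0.48 ± 0.30 (SE), and 8 of the 10 values were above 0, against 51.2% of tested genes, with a median of 0.20. That median was 0.13 without WT control replicate 2 and 0.11 with the endothelial score as covariate. With single libraries left out, the Cav1 difference ran from 0.37 to 0.76. The highest value, 0.76, came without the WT library at 134 CPM, WT control replicate 4 (edgeR, unadjusted p = 0.00611, adjusted p = 0.556). Leaving out WT control replicate 4 also raised the number of all tested genes at an unadjusted p under 0.05 by edgeR, from 745 of 18753 to 1163 of 18820. That library also had the highest endothelial marker sum of its group, 4835 CPM, and the highest choroid plexus marker sum of the 17 libraries, 8113 CPM. Plvap had a log2 difference of -0.49 ± 0.54. Without the same library it was -0.01. This comparison rests on 2 APP/PS1 libraries.

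In mice given inhibitor, 0 of the 10 genes were called between the genotypes, against 0.181% of tested genes, and 0 did not overlap, against 0.784%. At an unadjusted p under 0.05 edgeR counted 0 of the 10, against 3.38% of tested genes. Cav1 had a log2 difference of 0.13 ± 0.23, which crossed 0 when single libraries were left out, and Plvap one of 0.31 ± 0.40. The 10 values had a median of 0.04, with 6 above 0, against 50.6% of tested genes. The sign of that median turned. It was -0.10 without APP/PS1 inhibitor replicate 5 (4 of 10 above 0), -0.05 without APP/PS1 inhibitor replicate 2 (3 of 10), -0.012 without WT inhibitor replicate 4, -0.0082 without WT inhibitor replicate 5 and -0.0067 by limma voom. It was 0.14 without APP/PS1 inhibitor replicate 1 (9 of 10), 0.14 without APP/PS1 inhibitor replicate 4 (8 of 10) and 0.11 without WT inhibitor replicate 2 (6 of 10). It was 0.019 without APP/PS1 inhibitor replicate 3, and 0.09 with the endothelial score as covariate.

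The comparison of peptides asks whether blocking NOX2 moves these transcripts. Over both genotypes 0 of the 10 were called, and 0% of all tested genes were. At an unadjusted p under 0.05 edgeR counted 0 of the 10, against 2.11% of tested genes, and DESeq2 and limma voom also called 0 after adjustment. The caveolin and cavin log2 differences were between -0.06 (Cav2) and 0.13 (Cavin1). Ehd2 differed by 0.09, Ehd4 by 0.01, Mfsd2a by 0.04 and Tfrc by -0.01. Plvap differed by 0.21 ± 0.33 (SE), with an interval of the fold of 0.716 to 1.87. The 10 values had a median of 0.06, with 8 above 0, against 51.4% of tested genes. Their median was 0.12 without WT control replicate 4 (10 of 10 above 0) and 0.02 without WT control replicate 2 (7 of 10).

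Within WT mice the inhibitor was followed by 0 calls among the 10, against 0% of tested genes, and by 0 ranges that did not overlap, against 0.224%. At an unadjusted p under 0.05 edgeR counted 0 of the 10, against 1.34% of tested genes. The 10 values had a median of 0.10, with 8 above 0, against 50.6% of tested genes. Their median was 0.26 without WT control replicate 4 (10 of 10 above 0), 0.05 without WT control replicate 5 (7 of 10) and 0.03 with the endothelial score as covariate (6 of 10). Cav1 differed by 0.24 ± 0.23 on the log2 scale, and by 0.52 without WT control replicate 4 (edgeR, unadjusted p = 0.0172, adjusted p = 1.00). With single libraries left out, the Cav1 value ran from 0.14 to 0.52. Leaving out WT control replicate 4 also raised the number of all tested genes at an unadjusted p under 0.05 by edgeR, from 252 of 18753 to 734 of 18820. Plvap differed by -0.08 ± 0.41. Its value was 0.40 without WT control replicate 4 and 0.07 by limma voom.

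Within APP/PS1 mice 0 of the 10 were called, against 0% of tested genes, and 0 did not overlap, against 4.63% of tested genes. At an unadjusted p under 0.05 edgeR counted 0 of the 10, against 1.8% of tested genes. The 10 values had a median of -0.04, with 3 above 0, against 50.2% of tested genes. Their median was 0.05 without APP/PS1 inhibitor replicate 1 (7 of 10 above 0) and -0.16 without APP/PS1 inhibitor replicate 5 (2 of 10). Cav1 differed by -0.11 ± 0.30 and Plvap by 0.72 ± 0.54, the largest value of the 10 in size. Both control libraries of Plvap, at 3.08 and 4.12 CPM, lay inside the range of the 5 inhibitor libraries. The difference of the inhibitor effects between the genotypes was called for 0 of the 10 and for 0% of tested genes (at an unadjusted p under 0.05, for 0 of the 10 and for 0.843%), and it was -0.35 ± 0.38 for Cav1 and 0.80 ± 0.68 for Plvap. Without WT control replicate 4 the Plvap value was 0.32. Over the 10 genes this difference of effects had a median of -0.17, with 2 above 0, against 49.3% of tested genes. With the endothelial score as covariate that median was -0.06, with 4 above 0.

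Choroid plexus is a tissue whose fenestrated vessels express PLVAP. Its 7 markers, Ttr among them, gave scores (mean log2 CPM) that fell into separate ranges. They were 0.68 to 3.56 in 7 libraries (2 of WT with control peptide, 2 of WT with inhibitor, 1 of APP/PS1 with control peptide and 2 of APP/PS1 with inhibitor) and 5.17 to 7.16 in the other 10. Plvap was at 2.10 to 4.10 CPM in the 7 libraries and at 3.88 to 10.8 CPM in the 10. Within the 7, Pearson's r of Plvap with the score, group means not removed, was 0.59 (exact permutation p = 0.156) and Spearman's rho 0.61 (exact permutation p = 0.167). Within the 10, r was 0.51 (permutation p = 0.134) and rho 0.36 (permutation p = 0.315). The adjusted p over the 20 relations was 0.778 for both r, so no relation within either range was shown. The levels in the 7 and in the 10 libraries overlapped for Plvap and for each of the other 9 genes. For Plvap the overlap was narrow, from 3.88 to 4.10 CPM, and the median was 3.08 CPM in the 7 and 6.32 in the 10. Whether Plvap differed between these sets of libraries was not tested. The overlap was wider for Cavin1, at 159 to 356 CPM in the 7 (median 272) and 177 to 341 in the 10 (median 235).

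With the choroid plexus score as a covariate, added after the data were seen, the standard error of the Plvap difference between genotypes was 0.18 in place of 0.33. The Plvap difference with inhibitor in APP/PS1 mice was 0.32 in place of 0.72, that between genotypes with control peptide -0.15 in place of -0.49, and the difference of the inhibitor effects 0.34 in place of 0.80. Still 0 of the 10 genes passed in any of the 7 comparisons. Of the 18753 tested genes, 120 passed by genotype over both peptides, 10 by genotype with control peptide and 34 with inhibitor. The APP/PS1 libraries with control peptide had choroid plexus sums of 192 and 1909 CPM, those with inhibitor 450 to 4749.

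Within groups, the caveola genes varied together. After group means were removed from the log2 CPM, 24 of the 45 pairs of the 10 genes correlated across the 17 libraries at an adjusted p under 0.05 (permutation test of Pearson's r, 100000 resamples, two-sided, Benjamini-Hochberg over 45 pairs), and 41 of the 45 values were positive. The share of pairs among all tested genes that would pass was not counted, so this count does not show a relation particular to these genes. The closest pairs joined Cavin1, Cavin2 and Ehd4. Cavin1 and Ehd4 had r = 0.92 and rho = 0.91, and r = 0.86 without the 2 libraries farthest from the median of Cavin1. Cavin1 and Cavin2 had r = 0.92 and rho = 0.92, and r = 0.85 without 2 libraries. Cavin2 and Ehd4 had r = 0.90 and rho = 0.87, and r = 0.82 without 2 libraries. The permutation p of r was 1e-05 for each of the 3, the smallest these permutations can give, and the adjusted p was 0.00015. The permutations moved the 17 values freely across groups after group means were removed. Fewer than 17 values were then independent, so these p-values are likely too small, and relations near the threshold are uncertain. The same holds for the relations of Cav1 and of the marker scores below.

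Cav1 correlated at an adjusted p under 0.05 with 6 of the 9 other genes. Its closest relation was to Cav2, which lies near it on the same strand of chromosome 6 and encodes the partner of its protein (r = 0.83, rho = 0.85, permutation p = 8e-05 for both, adjusted p = 0.00072 for r). It was followed by Cavin1 (r = 0.77, adjusted permutation p = 0.00115), Ehd2 (r = 0.72) and Ehd4 (r = 0.68). Its r with Cavin2 was 0.56, and 0.34 without the 2 libraries farthest from the median of Cav1, so that relation rests on them in part. The relations of Cav1 to Mfsd2a (r = 0.51), Tfrc (r = 0.53) and Plvap (r = 0.39) did not pass. Plvap and Mfsd2a, one a part of diaphragms in leaky vessels and the other a marker of the tight barrier, had r = -0.26 (rho = -0.36, permutation p = 0.305 for r, adjusted p = 0.413).

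Marker scores of several cell types moved with the caveola genes, that of endothelium among them. With group means removed, the r of the endothelial score was 0.92 with Cavin1, 0.89 with Cav1, 0.86 with Ehd4, 0.83 with Cav2, 0.80 with Ehd2, 0.79 with Cavin2 and 0.79 with Cavin3 (permutation tests, adjusted p between 0.000367 and 0.00152 over 110 relations). It was 0.52 with Mfsd2a (adjusted permutation p = 0.0696), 0.31 with Plvap and 0.28 with Tfrc. After the score was subtracted from each gene, 4 of the 45 pairs passed: Cavin1 with Cavin2 (r = 0.70), Cav2 with Tfrc (r = 0.69), Cavin1 with Ehd4 (r = 0.66) and Cavin2 with Ehd4 (r = 0.65), each with an adjusted permutation p of 0.0411. Cav1 then passed with 0 of the 9, and its r with Cav2 was 0.23. Before the subtraction, the r of Cav2 with Tfrc was 0.65, and 0.34 without the 2 libraries farthest from the median of Cav2.

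**Figure D4:**
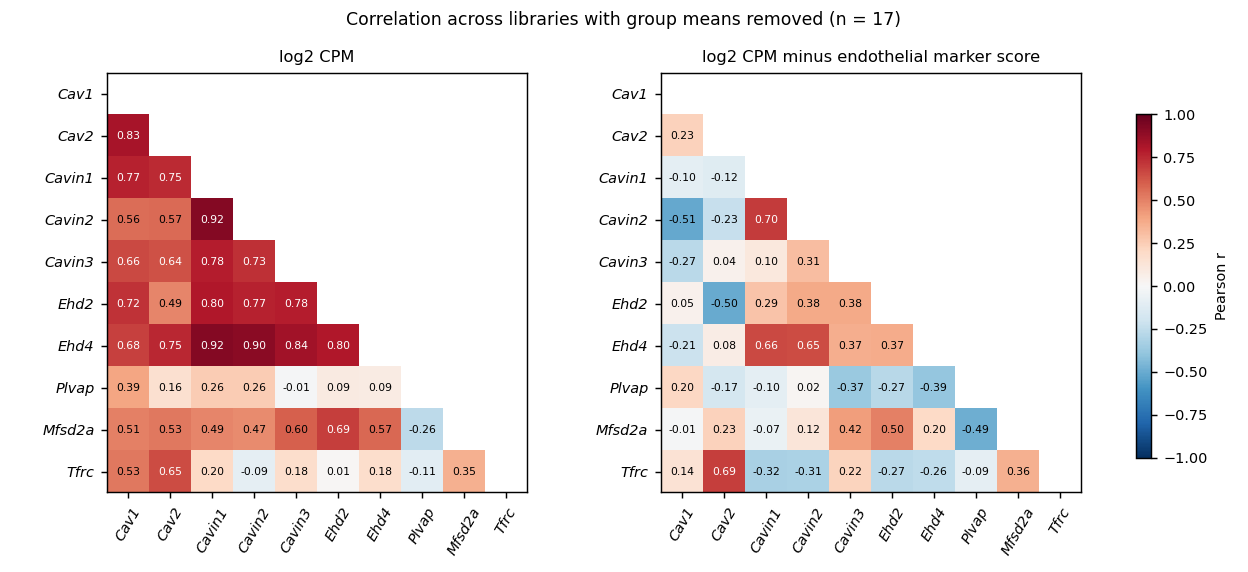
Pearson's r of each pair of genes across 17 libraries with group means removed, from log2 CPM (left) and after subtraction of the endothelial marker score (right). The block of caveolin, cavin and EHD genes on the left, up to 0.92, holds on the right mainly among Cavin1, Cavin2 and Ehd4 (0.65 to 0.70).

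Of the 110 relations between a gene and one of 11 marker lists, 45 passed. The choroid plexus list was not among the 11, and its relation to Plvap is given above within each range of its score. Cavin1, Cavin2, Cavin3, Ehd2 and Ehd4 each passed with the same 6 lists: endothelium, arterial endothelium, pericytes and smooth muscle, fibroblasts, astrocytes and microglia. Their r with the microglial markers was between 0.60 (Cavin3) and 0.76 (Cavin1), and with the astrocyte markers between 0.63 (Cavin1) and 0.76 (Ehd2). Cav1 passed with 5 lists, microglia among them (r = 0.66), and Cav2 with 3, again with microglia (r = 0.74). The part of each cell type in the levels of these genes was not tested, and no difference between genes in these relations was tested. Cav1 had its highest r with the arterial markers (r = 0.94, rho = 0.91, adjusted permutation p = 0.000367), and 0.88 without the 2 libraries farthest from the median. Mfsd2a had its highest r with the astrocyte markers (r = 0.86, rho = 0.82, adjusted permutation p = 0.000367, r = 0.73 without 2 libraries). It also passed with the markers of microglia (r = 0.66, adjusted permutation p = 0.0134), neurons (r = 0.62, adjusted permutation p = 0.0206) and oligodendrocytes (r = 0.60, adjusted permutation p = 0.0266). Plvap ran against the neuronal markers (r = -0.66, rho = -0.71, adjusted permutation p = 0.0145, r = -0.65 without 2 libraries). It also passed with the markers of oligodendrocytes (r = -0.57, adjusted permutation p = 0.0417) and fibroblasts (r = 0.56, adjusted permutation p = 0.0456). Tfrc passed with 0 of 11 marker lists, and its highest r was 0.38.

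**Figure D5:**
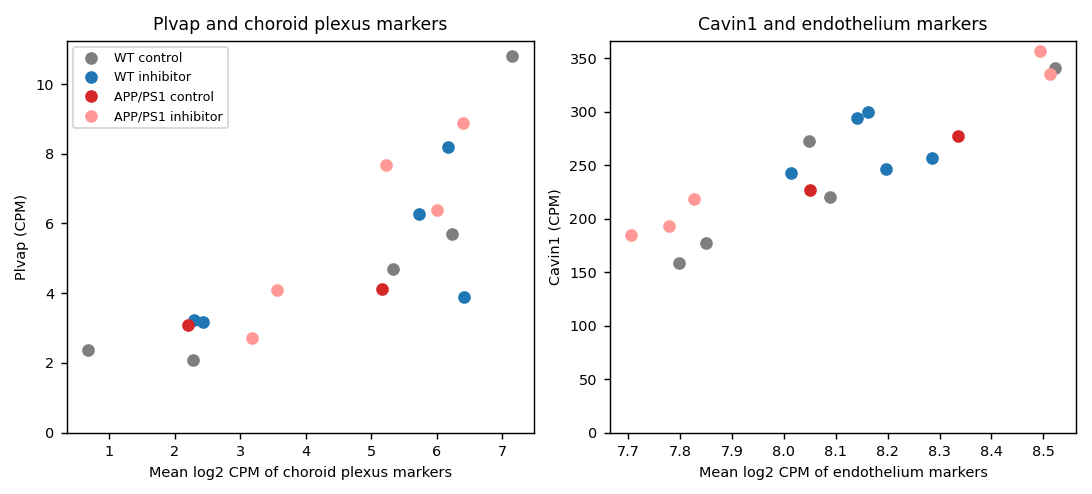
Left, Plvap level (CPM) against the choroid plexus score; right, Cavin1 level (CPM) against the endothelial score (each score a mean log2 CPM of the markers). Points are libraries coloured by group. On the left the libraries form 2 ranges of score with none between 3.56 and 5.17; on the right Cavin1 rises with the score from 159 to 356 CPM.

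Genes with the most similar pattern were listed by Pearson's r over the 17 libraries, group means removed, among the 11192 genes with a mean of at least 10 CPM. For Cav1 they were Slco1c1 (r = 0.96), a thyroid hormone transporter of brain endothelium, Apcdd1 (0.95), Fam129b (0.95), Fmnl3 (0.94) and Prickle1 (0.94), and Cav2 came 205th. In the ranking for Cav1, Cavin1 came 420th, Ehd2 661st, Ehd4 842nd, Cavin3 990th and Cavin2 1685th, so many other genes followed Cav1 as closely. For Plvap they were Sema3b (r = 0.94), Klhdc7a (0.94), Efs (0.93), Shroom3 (0.93) and Ston2 (0.92). For Mfsd2a they were Mgat3 (r = 0.93), Hspa13 (0.92), Rgmb (0.92), Cd200 (0.91) and Fpgt (0.91). For Tfrc they were Polr2c (r = 0.83), Ip6k1 (0.82), Tmem87b (0.81), Zdhhc16 (0.81) and Rce1 (0.81), lower than for the other 3 genes. In the same ranking for Cavin1, Ehd4 was 20th and Cavin2 was 23rd. For Cavin2, Cavin1 was 19th and Ehd4 43rd, and for Ehd4, Cavin1 was 15th and Cavin2 49th. Other genes thus followed each of these 3 more closely than they followed each other. The ranking was not made after subtraction of the endothelial score.

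Other genes of the same routes, or of the same gene families, were described from lists. Of 15 other genes of caveolae or related to caveola genes, 14 were tested, and 0 were called in any of the 7 comparisons. Cav3, the caveolin of muscle, was the one that did not pass the filter, at 0 to 0.203 CPM. The highest of the list were Bmpr2 at 775 ± 114 CPM (SD, n = 17), Pacsin1 at 152 ± 13.2, Dnm2 at 131 ± 7.15 and Nos3 at 108 ± 26.7. Dnm2 is a dynamin, which pinches vesicles off, and Nos3 is the endothelial nitric oxide synthase that binds caveolin-1. Pacsin2, of the same family as Pacsin1, was at 44.5 ± 4.23. Markers of neurons were abundant in these libraries, and the part of neuronal RNA in the levels of this list was not tested. The median log2 difference by genotype over both peptides was 0.05 in this list, with 10 of 14 above 0, against 50.7% of tested genes.

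Of 25 genes of clathrin-coated pits and receptor-mediated transcytosis, all were tested and 0 were called in any comparison. Over all tested genes the share called was 0.587% by genotype over both peptides, 0.0533% by genotype with control peptide, 0.181% with inhibitor and 0% in the other 4 comparisons. The highest were the receptor Lrp1 at 1231 ± 109 CPM, Bsg at 977 ± 253, Igf1r at 649 ± 92.8 and the clathrin heavy chain Cltc at 405 ± 42.3. Their median difference by genotype was 0.02, with 14 of 25 above 0, against 50.7% of tested genes. Of 15 iron handling genes, which act behind the transferrin receptor, 0 were called by genotype over both peptides, against the same 0.587% of tested genes. The highest were the ferritin Fth1 at 171 ± 44.1 CPM, Ireb2, an iron sensor that binds Tfrc mRNA, at 78.3 ± 4.65, Slc11a2 at 63.7 ± 5.37 and the iron exporter Slc40a1 at 60.1 ± 18.1.

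Among the iron genes Tfr2, the second transferrin receptor, had a log2 difference by genotype of -0.38 ± 0.17 (edgeR, unadjusted p = 0.0350, adjusted p = 0.718), and is named because it was seen to have an unadjusted p under 0.05. Of 18 genes of vesicle fusion and recycling, 0 were called by genotype over both peptides, against 0.587% of tested genes. Their median difference was 0.04, with 14 of 18 above 0, against 50.7% of tested genes. The highest were Vamp2 at 227 ± 52.4 CPM, Nsf at 171 ± 18.3, Rab7 at 92.4 ± 14.7 and Vps35 at 82.9 ± 5.37. The part of neuronal RNA in these levels was not tested either. Over the 4 lists, 72 genes were tested, and edgeR gave an unadjusted p under 0.05 to 1 of them by genotype over both peptides, against 6.38% of tested genes, and to 0 by inhibitor over both genotypes, against 2.11%. Lists of these sizes would hold few calls or none at the shares over all genes, and nothing about the lists is read from their counts.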

How the data were processed

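The 10 genes, the marker lists and the lists of related genes were chosen with earlier results of these data known. The authors deposited raw counts per Ensembl gene for 42687 genes. Per the submitters' processing notes, cutadapt, STAR, HTSeq and DESeq2 were used, with the builds mm10 and GRCh37 named; their roles, versions and strand settings are not given in the sources used here. Per the labels' protocols, ribosomal RNA was depleted and libraries were made with a stranded kit. The table also held 20 columns of values that matched no sample, which were not used here. Symbols came from GENCODE vM21 (42250 IDs matched, 437 did not). No 2 of the 17 libraries held identical values.

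Counts were tested with the quasi-likelihood test of edgeR 4.0.16 (R 4.3.3) after TMM scaling and filterByExpr, which kept 18753 genes; p-values were adjusted over these by Benjamini-Hochberg, with a threshold of 0.05. Effects within a genotype or peptide, and their difference, came from a fit of the 4 groups, and those over both from an additive fit of genotype and peptide. All 17 libraries entered each fit, because APP/PS1 with control peptide has 2, and no covariate was used. CPM are on TMM-scaled library sizes, log2 levels have a prior count of 2, and 3 counts were taken as the floor, 0.174 to 0.390 CPM, which covers counting error only. A marker score is the mean log2 CPM of a list. The labels share no replicate numbers between groups; replicates are numbered in the order of deposition. Alternatives were DESeq2 1.42.0 size factors and test, limma 3.58.1 voom, no low-count filter, only the groups compared, single libraries left out, and the endothelial score as covariate; the choroid plexus score was added after the data were seen. The test was tried on simulated data. Genes named are the 10, the transgene and oxidase checks, up to 4 of each related list by level, and the 5 most similar to Cav1, Plvap, Mfsd2a and Tfrc; any other is said to be chosen after its values were seen.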

Additional observations from a re-analysis of the deposited data

Results flagged for a closer look

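Cavin2 stood apart in 1 library. In WT mice with inhibitor, replicate 3 had a log2 level of 6.41 (84.8 CPM), while the other 4 libraries of the group were at 60.8, 62.2, 65.8 and 66.4 CPM. The gap to the nearest of the others, divided by the range of the group, exceeded the critical value of 0.71 for 5 libraries. Such a gap was looked for in 36 groups of values, and chance alone gives about 1 in 20. Ehd4 was highest in the same library too, at 52.2 CPM within that group, without passing the critical value.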

How the results depend on the processing

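No paired analysis was possible because the labels give no replicate numbers shared between groups. In the 7 comparisons 0 of the 10 genes were called under every alternative run. The number of all genes called by genotype over both peptides was 110, 176 by DESeq2's Wald test, and 70 to 125 with single libraries left out. With control peptide it was 10, 44 by DESeq2, 16 with the endothelial score as covariate, and 4 to 17 with single libraries left out. With inhibitor it was 34, 61 by DESeq2, 53 with the endothelial score, and 15 to 38 with single libraries left out. The cause was not tested.

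Several log2 differences near 0 changed sign. Cavin1 by genotype over both peptides was -0.0033 with DESeq2's size factors, -0.0023 by DESeq2, -0.010 by voom and -0.0035 with the endothelial score. By voom, Ehd4 with inhibitor over both genotypes was -0.0023 and Plvap with inhibitor in WT mice 0.074. With single libraries left out, the genotype difference over both peptides ran from -0.054 to 0.11 for Cav2, -0.078 to 0.068 for Cavin1, -0.12 to 0.029 for Cavin3, -0.10 to 0.21 for Plvap and -0.096 to 0.040 for Tfrc. The inhibitor difference over both genotypes ran from -0.098 to 0.034 for Cav2, -0.054 to 0.12 for Cavin2, -0.023 to 0.14 for Mfsd2a, -0.053 to 0.026 for Tfrc and -0.083 to 0.11 for Ehd4. That of Cav1 by genotype with inhibitor ran from -0.060 to 0.25 and with inhibitor in APP/PS1 mice from -0.30 to 0.0030, and that of Plvap with inhibitor in WT mice from -0.32 to 0.40.

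With the endothelial score subtracted, Cav1 passed with 0 of 9 genes in place of 6, and its r was -0.10 with Cavin1, -0.51 with Cavin2, -0.27 with Cavin3, -0.015 with Mfsd2a and -0.21 with Ehd4. With single libraries left out, Cav1 passed with 5 to 7.

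Plvap had 20 to 121 reads per library, the fewest of the 10 genes; what limits its precision was not tested. APP/PS1 with control peptide has 2 libraries, which limits each comparison that uses it.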
